A study of Mus musculus with 32 samples.

Results

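The genes described here are 9 genes of B cells and antibody-secreting plasma cells, measured by RNA-seq in the meninges of 5xFAD mice with and without light treatment. They were chosen by symbol from the gene annotation of the deposited tables and are Cd79a, Cd79b, Ms4a1, Jchain, Mzb1, Cd22, Vpreb3, Fcrla and Pax5, 9 of the 22337 genes listed. The 5xFAD mouse carries mutant human amyloid precursor protein and presenilin transgenes driven by the neuronal Thy1 promoter, and it was compared with transgene-free WT littermates, all male, on the C57BL/6J background and 6 months old. Part of the 5xFAD mice received repeated near-infrared illumination of the skull through the shaved scalp under anaesthesia (5xFAD+L). The WT mice of this series received no near-infrared light. The paper states that control mice were likewise anaesthetised and shaved, then placed under indoor light for the same time. Untreated below means without near-infrared light. Whole meninges were taken from 4 WT, 3 5xFAD and 3 5xFAD+L mice, 1 mouse per library. Hippocampus (HPC; 4 libraries per group) and FACS-sorted meningeal lymphatic endothelial cells (mLECs; 4 WT, 3 5xFAD and 3 5xFAD+L libraries) served as background. Whole meninges hold many cell types, so in these bulk libraries fewer B-lineage cells and less RNA per cell cannot be told apart.

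B cells recognise antigen through a membrane immunoglobulin that signals through a pair of partner proteins, and after activation some of them become plasma cells, which secrete antibody. Cd79a and Cd79b encode the partner proteins, the signalling chains of the B-cell receptor. Ms4a1 encodes CD20, a surface protein of mature B cells, and Cd22 encodes an inhibitory, sialic-acid-binding co-receptor. Pax5 is the transcription factor that maintains B-cell identity, Vpreb3 encodes a protein that assists receptor assembly in developing B cells, and Fcrla encodes an intracellular Fc-receptor-like protein of B cells. Jchain encodes the joining chain that links the units of secreted IgM and IgA, and Mzb1 encodes an endoplasmic-reticulum co-chaperone of immunoglobulin assembly, abundant in plasma cells. The dura, the outermost meningeal layer, normally houses B cells and plasma cells, and the adjoining skull marrow produces developing B cells.

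All 9 are protein-coding genes. In GENCODE vM21 (GRCm38), Cd79a spans chr7:24897381-24902197 on the plus strand and Cd22 chr7:30865402-30880342 on the minus strand. Cd79b lies at chr11:106311341-106314762, Ms4a1 at chr19:11249675-11266241, Jchain at chr5:88519809-88527891, Fcrla at chr1:170917576-170927583 and Pax5 at chr4:44524757-44710487, all on the minus strand, and Vpreb3 at chr10:75943057-75949657 on the plus strand. Another gene model, SPATA24, overlaps Mzb1 on the same strand, so Mzb1 reads could be divided between both models, and its level is uncertain for that reason. Same-strand models also overlap Fcrla (Gm2962) and Pax5 (Mir5120), and the levels of both are uncertain in the same way. Antisense or opposite-strand models overlap Ms4a1 (4930526L06Rik), Cd22 (Gm29439), Vpreb3 (Gm16221) and Pax5 (Gm12462, 4930517J16Rik and 5730488B01Rik). The library protocol did not mark strand, so reads of such partners cannot be told apart.

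RefSeq promoter sequences (GRCm38.p6) matched 6 of the 9 genes. The 250 bases before the RefSeq start are shown for Jchain, the most abundant of the 9, for Fcrla, which had the largest fitted difference between light-treated and untreated 5xFAD meninges, and for Vpreb3. None of these windows touched a GENCODE exon. They lie at chr5:88527898-88528147 (minus strand), chr1:170927584-170927833 (minus strand) and chr10:75948050-75948299 (plus strand), and capitals mark motif matches.
Jchain: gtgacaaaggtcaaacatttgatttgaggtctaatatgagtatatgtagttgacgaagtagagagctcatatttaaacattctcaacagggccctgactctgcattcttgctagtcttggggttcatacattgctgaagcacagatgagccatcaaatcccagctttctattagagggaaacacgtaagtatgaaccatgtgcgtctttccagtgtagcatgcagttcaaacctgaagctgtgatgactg
Fcrla: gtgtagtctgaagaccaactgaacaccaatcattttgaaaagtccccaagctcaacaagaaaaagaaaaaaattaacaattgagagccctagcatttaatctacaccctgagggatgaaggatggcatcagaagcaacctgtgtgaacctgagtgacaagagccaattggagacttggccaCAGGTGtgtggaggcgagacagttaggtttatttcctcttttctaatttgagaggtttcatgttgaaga
Vpreb3: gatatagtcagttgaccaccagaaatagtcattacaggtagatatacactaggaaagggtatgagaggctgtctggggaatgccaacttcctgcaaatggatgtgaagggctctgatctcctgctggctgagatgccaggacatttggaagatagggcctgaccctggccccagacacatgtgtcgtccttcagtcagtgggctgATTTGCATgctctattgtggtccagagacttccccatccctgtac
Motifs of 4 kinds were searched on both strands. The immunoglobulin octamer ATGCAAAT was found in 1 of the 6 promoters, that of Vpreb3, 45 to 38 bases before the start, against 1.6% of all 32851 promoter windows of this length. The E-box CACCTG was found in 3 of 6 (Cd22, Cd79a and Fcrla), against 17.2% of all windows. The pattern CCCNNGGG, which early B-cell factor can bind, was found in 1 of 6 (Cd22), against 11.8%, and GAGGAAGT, which PU.1 can bind, in 0 of 6, against 2.44%. The Jchain and Pax5 windows held none of the 4 patterns. The Cd22 and Cd79a windows, not shown, overlapped 4 and 1 GENCODE exons. That of Cd22 (chr7:30879029-30879278) lay wholly inside the GENCODE span of the gene. The Vpreb3 window shown, with its octamer, also lay wholly inside the GENCODE span of Vpreb3, so it is upstream of the RefSeq start only. These motifs do not overlap one another in the windows shown, and a match is a description of the letters and not of binding.

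Depth in the meninges ranged from 6601143 to 14708202 counts per library, in HPC from 13952825 to 23856476 and in mLECs from 14231415 to 24207326. The FPKM values used below are fragment numbers scaled by transcript length and by library depth, a scale on which genes can be set beside each other. Genes with at least 1 FPKM in at least 3 libraries of a tissue were tested with edgeR's quasi-likelihood test on the counts, and a gene was called at an adjusted p under 0.05 with at least a 2-fold difference. In the meninges 8 of the 9 passed this filter, and Pax5 did not.

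In WT meninges the genes covered a wide range of levels. Jchain was highest, at 138 ± 41.8 FPKM (mean ± SD, n = 4). Cd79a (12.1 ± 3.45 FPKM), Mzb1 (11.8 ± 5.16 FPKM) and Cd79b (9.39 ± 1.76 FPKM) followed and lay within each other's spread. Vpreb3 had 2.62 ± 1.06 FPKM, Fcrla 1.45 ± 0.738 FPKM and Ms4a1 1.28 ± 0.726 FPKM, and these 3 neighbours also overlapped. Cd22 (0.435 ± 0.127 FPKM) and Pax5 (0.263 ± 0.172 FPKM) were lowest and overlapped as well.

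All 9 genes were higher in every WT meninges library than in every WT HPC library, a separation found for 35.6% of all genes tested. In HPC of WT mice Jchain was at 0.283 ± 0.0911 FPKM and Cd79b at 0.348 ± 0.191 FPKM (n = 4 each). Only 5 of the 9 passed the filter in this comparison (Cd79a, Cd79b, Jchain, Mzb1 and Vpreb3), each because of its meningeal level. They had to differ to enter, so the fitted values are descriptions with no p. All 5 met the call rule for a higher level in meninges, as did 28.3% of the 14144 genes tested, and nothing is read from that count. The fitted log2 fold change was 8.85 (SE 0.363) for Jchain, 7.09 (SE 0.685) for Cd79a and 4.65 (SE 0.368) for Cd79b. Ms4a1 and Fcrla had no count in any WT HPC library. Set against 3 counts over the WT HPC group, the pooled level in WT meninges was at least 118-fold higher for Ms4a1 and at least 62.9-fold higher for Fcrla, limits that cover counting error only.

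**Figure D1:**
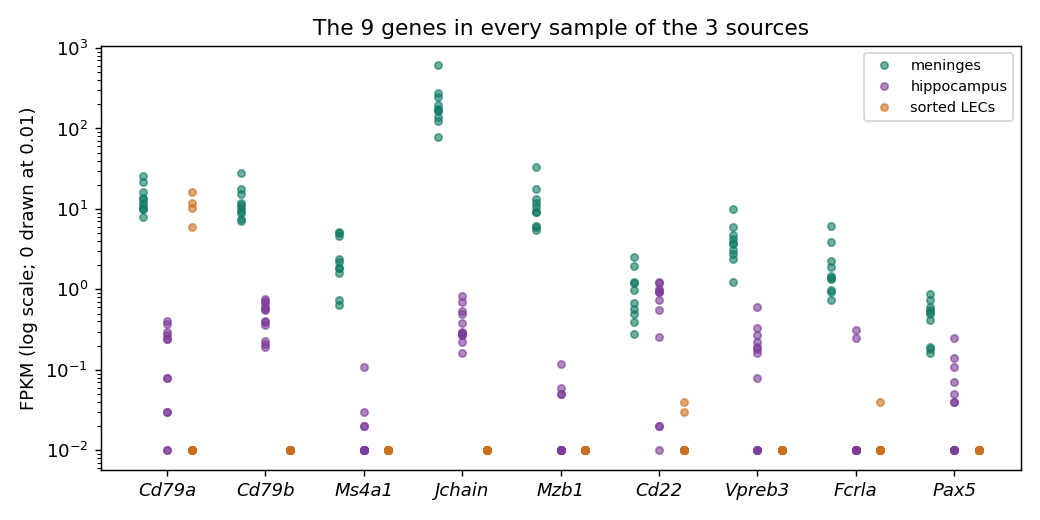
FPKM on a log scale of the 9 genes in every library of the meninges (10), HPC (12) and sorted mLECs (10), with values of 0 drawn at 0.01. For 6 genes every meninges library is above every library of the other sources, and Cd79a of 3 mLEC libraries and Cd22 and Pax5 of some HPC libraries fall in the meningeal range.

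In sorted mLECs, Cd79b, Ms4a1, Jchain, Mzb1 and Vpreb3 had 0 counts in all 10 libraries. At these depths this allows up to 0.124 to 0.211 CPM (the count as a share of library depth) in a library, a limit that covers counting error only. The mLEC libraries detected 5998 to 9020 genes each, against 17427 to 19769 in the meninges, so transcripts present in the cells could be missed. Cd22, Fcrla and Pax5 together had counts in 4 instances, at most 3 counts each. Cd79a was the exception, listed at 12.01 FPKM in WT replicate 4, 10.41 FPKM in 5xFAD replicate 2, and 5.95 and 16.48 FPKM in 5xFAD+L replicates 2 and 3, and at 0 in the other 6 libraries. Its partner Cd79b and the pan-leukocyte gene Ptprc were at 0 in all 10. The lymphatic receptor gene Flt4 was present in all 10 mLEC libraries, from 3.83 to 81.6 FPKM, whereas the lymphatic transcription factor gene Prox1 was at 0 in 3 of them (WT replicates 1 and 2 and 5xFAD replicate 2). Of the 5 lymphatic endothelial markers (Prox1, Flt4, Pdpn, Lyve1 and Pecam1), 2 to 5 had a count in WT mLEC libraries. The range was 3 to 5 in 5xFAD, and all 5 had a count in each 5xFAD+L library. Ptprc, Flt4 and Prox1 were picked after their values were seen.

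In the meninges, the receptor chains differed little between untreated 5xFAD and WT mice and had their highest values in light-treated mice. Cd79a was at 16.1, 13.4, 10.9 and 8.01 FPKM in WT replicates 1 to 4, at 9.93, 13.8 and 10.1 FPKM in 5xFAD replicates 1, 2 and 4, and at 26.0, 21.4 and 12.0 FPKM in 5xFAD+L replicates 1, 2 and 4. Light-treated replicate 4 lay inside the WT range. Cd79b was at 11.3, 10.2, 8.94 and 7.17 FPKM in WT, at 9.52, 7.43 and 11.9 FPKM in 5xFAD and at 28.4, 17.7 and 15.2 FPKM in 5xFAD+L, in the same order of replicates. Every light-treated library was above every other meninges library for Cd79b. On the log2 scale Cd79b was 1.09 higher in 5xFAD+L than in 5xFAD (SE 0.319, 95% interval 0.40 to 1.78, edgeR adjusted p = 0.286) and 1.11 higher than in WT (SE 0.292, adjusted p = 0.142), so neither difference passed the test.

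Of the mature B-cell surface genes, Ms4a1 (CD20) separated the light-treated group most cleanly, while its WT and 5xFAD values overlapped. It was at 2.17, 1.58, 0.73 and 0.65 FPKM in WT, at 2.41, 1.85 and 1.83 FPKM in 5xFAD and at 4.62, 5.03 and 5.12 FPKM in 5xFAD+L. The light-treated libraries had an SD of 0.267 FPKM and lay above all others. Its log2 difference was 1.28 against 5xFAD (SE 0.436, edgeR adjusted p = 0.305) and 1.92 against WT (SE 0.405, 95% interval 1.05 to 2.79, edgeR adjusted p = 0.0954). Cd22 was at 0.50, 0.57, 0.39 and 0.28 FPKM in WT, at 0.99, 0.68 and 1.24 FPKM in 5xFAD and at 1.97, 2.56 and 1.21 FPKM in 5xFAD+L. Both 5xFAD groups were above every WT library, and the 2 groups overlapped with each other. Cd22 passed the filter through 5xFAD and 5xFAD+L libraries alone, and its log2 difference was 0.78 (SE 0.485) between 5xFAD and WT and 1.61 (SE 0.477) between 5xFAD+L and WT, given as descriptions.

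Fcrla and Vpreb3 also had their highest group mean in light-treated mice. Fcrla was at 1.89, 2.26, 0.92 and 0.74 FPKM in WT, at 1.33, 0.99 and 1.40 FPKM in 5xFAD and at 3.86, 6.23 and 1.48 FPKM in 5xFAD+L. Its log2 difference between 5xFAD+L and 5xFAD, 1.54 (SE 0.618, edgeR adjusted p = 0.345), was the largest of the 8, although light-treated replicate 4 lay just above the untreated 5xFAD libraries and inside the WT range. Vpreb3 was at 3.10, 1.24, 2.42 and 3.71 FPKM in WT, at 4.28, 3.81 and 2.73 FPKM in 5xFAD and at 9.99, 6.05 and 4.79 FPKM in 5xFAD+L, all 3 above every other library. The log2 difference of Vpreb3 was 0.97 (SE 0.559) against 5xFAD and 1.39 (SE 0.519) against WT, with edgeR adjusted p of 0.467 and 0.219. Pax5 was at 0.18, 0.19, 0.52 and 0.16 FPKM in WT, at 0.56, 0.87 and 0.60 FPKM in 5xFAD and at 0.49, 0.73 and 0.42 FPKM in 5xFAD+L. It was the only one of the 9 whose highest library was untreated 5xFAD, and it was not tested.

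The plasma cell genes among the 9 depended on 1 light-treated library, Mzb1 for its direction and Jchain for part of its size. Jchain was at 78.5, 164, 170 and 139 FPKM in WT, at 125, 247 and 198 FPKM in 5xFAD and at 279, 612 and 173 FPKM in 5xFAD+L. Replicate 2 of the light-treated mice held the highest value, and replicate 1 was also above every untreated library. Replicate 4 lay inside the untreated 5xFAD range and just above WT. The log2 difference was 0.85 (SE 0.410, edgeR adjusted p = 0.405) against 5xFAD and 1.33 (SE 0.379, edgeR adjusted p = 0.148) against WT. Without light-treated replicate 2 these were 0.31 and 0.79. Mzb1 was at 5.48, 13.4, 10.5 and 17.8 FPKM in WT, at 5.95, 11.8 and 9.22 FPKM in 5xFAD and at 9.15, 33.7 and 6.19 FPKM in 5xFAD+L. Its log2 difference of 0.79 against 5xFAD (SE 0.564) turned to -0.17 without light-treated replicate 2, and the 0.41 against WT turned to -0.55.

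**Figure D2:**
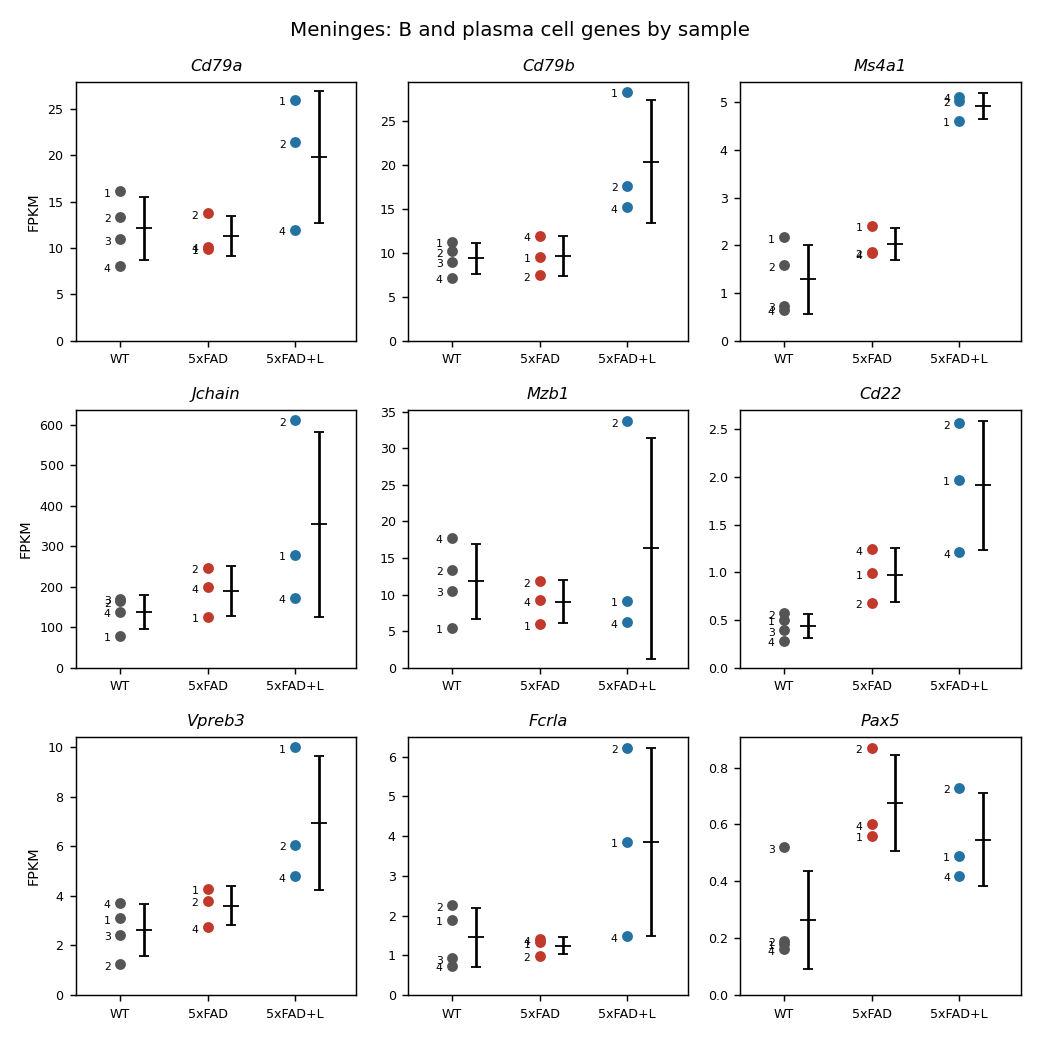
FPKM of the 9 genes in each meninges library (points, numbered by replicate) of WT (n = 4), 5xFAD (n = 3) and 5xFAD+L (n = 3) mice, with the mean and SD as a bar to the right. Ms4a1 and Cd79b of all 3 light-treated libraries lie above every other library, whereas Jchain and Mzb1 reach 612 and 33.7 FPKM in light-treated replicate 2 alone.

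Read together by comparison, 0 of the 8 tested genes were called in the meninges by edgeR. Between 5xFAD and WT, 0 genes were called among the 14318 tested (0%), 5 of the 8 had a positive log2 fold change (49.6% of all genes), the median was 0.22 (median of all genes -0.0029) and 0 had an unadjusted p under 0.05, against 4.01% of all genes. Cd22 alone of the 8 had non-overlapping groups, higher in 5xFAD, against 2.19% of all genes. Only 5xFAD and 5xFAD+L libraries brought Cd22 past the filter, so nothing is read from that separation. The 95% intervals of the 8 together spanned -1.53 to 1.82 on the log2 scale.

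Between 5xFAD+L and 5xFAD all 8 log2 fold changes were positive, from 0.79 to 1.54 (53% of all genes were positive), with a median of 0.91 beside 0.04 over all genes tested. The call rule held for 0 of the 8 and for 0.014% of all genes, all of these lower. An unadjusted p under 0.05 was found for 4 of the 8 (Cd79a, Cd79b, Ms4a1 and Fcrla), against 5.01% of all genes in that direction. The light-treated group did not overlap with the untreated 5xFAD group for 4 of the 8 (Cd79b, Ms4a1, Vpreb3 and Fcrla), against 10.1% of all genes. Between 5xFAD+L and WT, all 8 were again positive (51% of all genes), with a median of 1.32 beside 0.01 over all genes. The call rule held for 0 of the 8 and for 0.014% of all genes, while 7 of 8, all but Mzb1, had an unadjusted p under 0.05, against 8.13% of all genes. Here 5 of the 8 did not overlap (Cd79b, Ms4a1, Jchain, Cd22 and Vpreb3), against 6.99%. Cd22 is in these counts although only 5xFAD and 5xFAD+L libraries brought it past the filter. Both light comparisons use the same 3 light-treated libraries. The genes were chosen with earlier results of these data known, so their shares beside those of all genes are descriptions.

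The call against WT depended on the tool. DESeq2, the tool named in the study's methods, called 3 of the 8 higher in 5xFAD+L than in WT, against 0.733% of all genes called higher. These were Ms4a1 (log2 fold change 1.89, DESeq2 adjusted p = 0.00268), Jchain (1.30, adjusted p = 0.0234) and Cd79b (1.09, adjusted p = 0.0450). Against untreated 5xFAD, DESeq2 called 0 of the 8, beside 0.133% of all genes called higher.

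**Figure D3:**
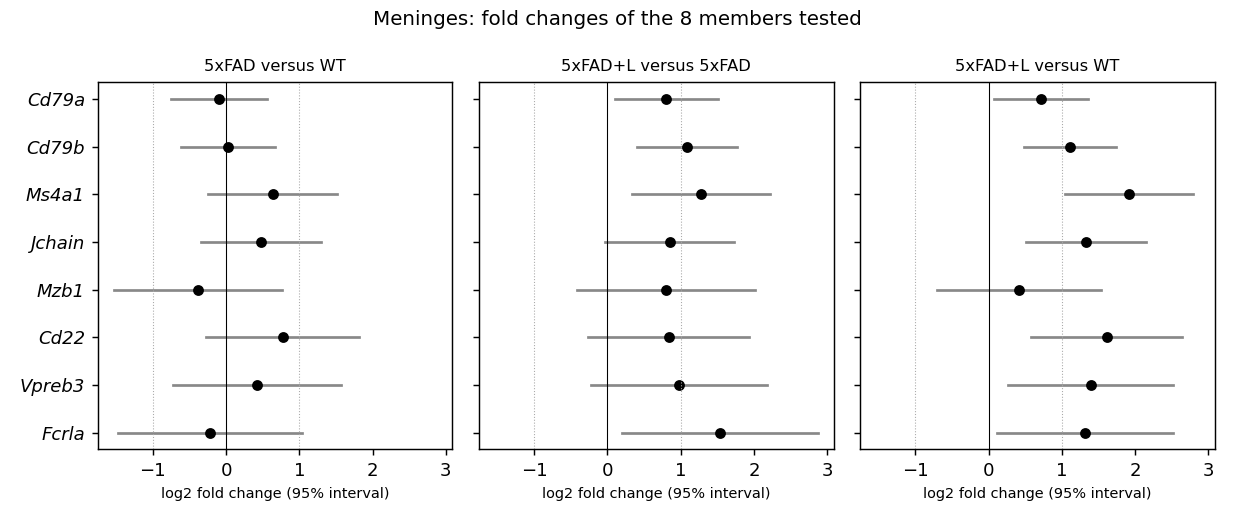
Log2 fold change of the 8 tested genes in the 3 meningeal comparisons (points) with 95% intervals (lines) from edgeR, where dotted lines mark 2-fold. Both comparisons with light-treated mice have all points right of 0, and the comparison of 5xFAD with WT has points on both sides.

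The light-treated libraries were not alike. Among the 3 of them, replicate 2 held the highest FPKM of 5 genes (Jchain, Mzb1, Cd22, Fcrla and Pax5), replicate 1 of 3 genes (Cd79a, Cd79b and Vpreb3) and replicate 4 of 1 gene (Ms4a1). Counted by FPKM against the highest WT library, 9 of the 9 genes were higher in light-treated replicate 2, 7 in replicate 1 and 5 in replicate 4, and 4 in each untreated 5xFAD library. Pax5 is among them for replicate 2 and for untreated 5xFAD, but its order by share of counts differed. It was at 1.09 CPM (16 counts) in light-treated replicate 2 and 4.03 CPM in replicate 1. In 5xFAD replicates 1, 2 and 4 it was at 4.70, 3.54 and 4.05 CPM. WT replicate 3 had 4.42 CPM (39 counts). The transcript length implied by its counts and FPKM was 1490 bases in light-treated replicate 2 and 8495 bases in WT replicate 3. The Jchain to Cd79a ratio of FPKM, a measure of plasma cell against B-cell transcript, was 10.7, 28.6 and 14.5 in light-treated replicates 1, 2 and 4. It lay between 12.6 and 19.6 in 5xFAD and between 4.88 and 17.3 in WT, so the light-treated group enclosed the untreated 5xFAD range.

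Markers of other cells also differed among the libraries. The summed level of 9 neutrophil and marrow myeloid markers was 7421 FPKM in light-treated replicate 1, against 521 to 3063 FPKM in the 7 untreated libraries and 640 and 696 FPKM in light-treated replicates 2 and 4. Summed FPKM of 6 erythroid markers was 48555 in light-treated replicate 1 against 5038 to 18233 in the 7 untreated libraries. Of the 2 bone markers, Bglap was at 2195 FPKM in light-treated replicate 4 against 87.5 to 548 FPKM in untreated libraries. Ibsp, at 36.0 FPKM in that library, lay inside the untreated range of 19.0 to 106 FPKM, and its log2 difference between 5xFAD+L and 5xFAD was -1.20 (SE 0.445). The summed level of 9 T-cell markers ranged from 15.8 to 59.2 FPKM in WT, 22.3 to 39.2 in 5xFAD and 27.5 to 60.05 in 5xFAD+L, so the sums overlapped between groups. Between 5xFAD+L and 5xFAD, however, 8 of the 9 T-cell markers had a positive log2 fold change, with a median of 0.77 beside 0.91 for the B-lineage genes, and 0 were called. The 4 macrophage markers summed to 296 to 489 FPKM in WT, 304 to 334 in 5xFAD and 282 to 542 in 5xFAD+L. All 9 neutrophil and all 6 erythroid markers had positive log2 fold changes between 5xFAD+L and 5xFAD, with medians of 0.61 and 1.05, and 0 of them were called. Some markers of other cells separated all 3 light-treated libraries from the 7 untreated ones, as Cd79b, Ms4a1 and Vpreb3 did. The 4 plasmacytoid dendritic cell markers summed to 16.3 to 19.65 FPKM in 5xFAD+L against 9.93 to 15.51 FPKM in the untreated libraries, with 3 of 4 log2 fold changes positive against 5xFAD, a median of 0.45 and 0 called. Siglech, the most abundant of these and also a microglial gene, was at 10.52 to 11.07 FPKM against 6.37 to 10.28 FPKM. The 4 meningeal fibroblast markers were all positive against 5xFAD, with a median of 0.49 and 0 called, and their sums overlapped (1245 to 1975 FPKM in 5xFAD+L, 834 to 1927 in 5xFAD and 983 to 1384 in WT). Among them Lum was at 170.01 to 187.39 FPKM in 5xFAD+L and at most 166 FPKM elsewhere. Of the lymphatic endothelial markers, 2 of 4 tested were positive, with a median of 0.0041, and Pdpn, which fibroblasts also express, was at 98.69 to 111.83 FPKM in 5xFAD+L and at most 96.04 FPKM elsewhere. These 3 genes were picked after their values were seen. The part of these cells in the B-cell result was not tested. Without light-treated replicate 1 the median of the 8 genes against 5xFAD was 0.90, and the values of Cd79b and Cd79a were 0.71 and 0.49.

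**Figure D4:**
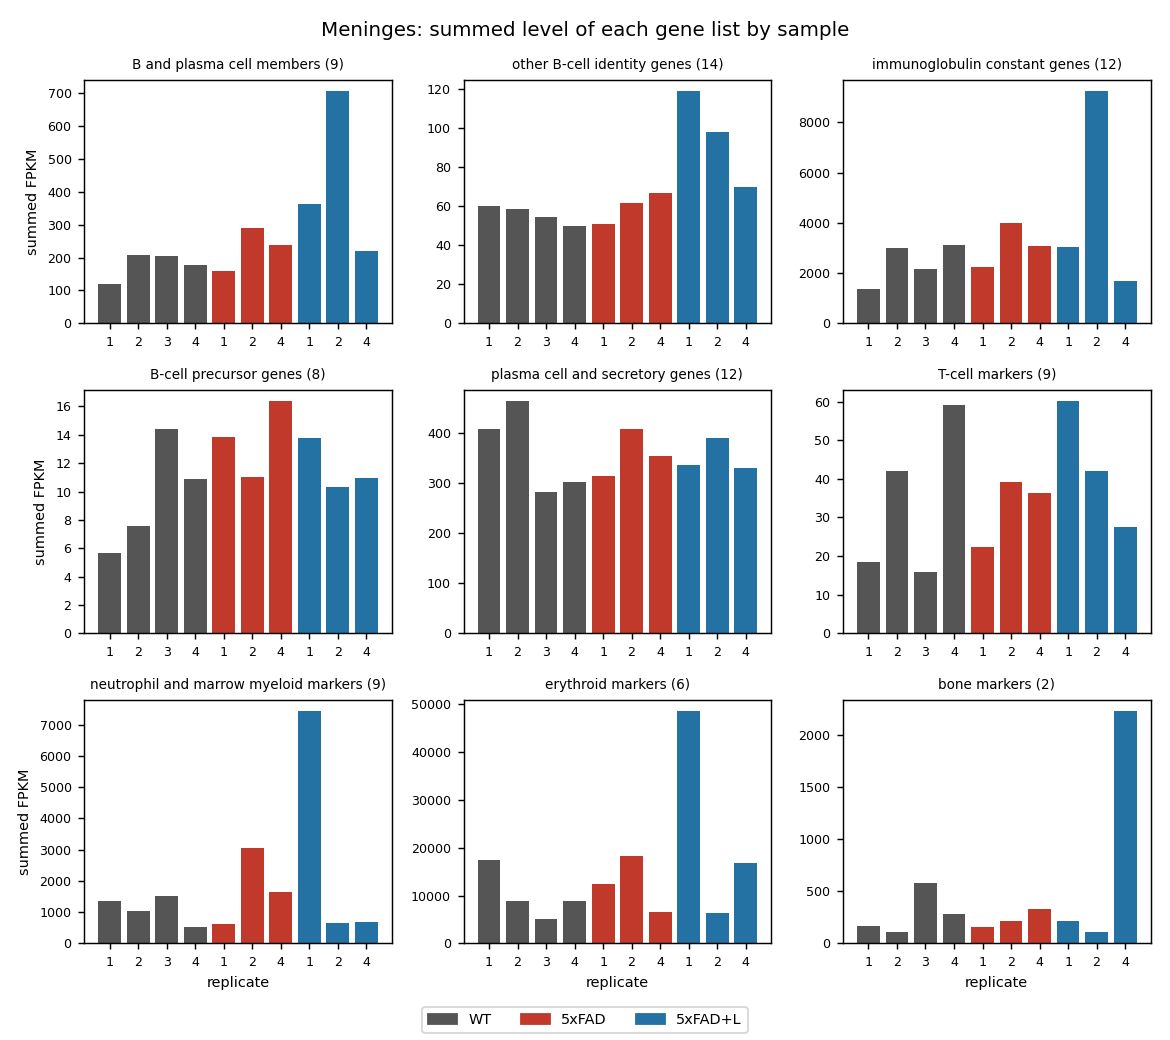
Summed FPKM of each gene list (number of genes in parentheses) in every meninges library, with bars for WT, 5xFAD and 5xFAD+L mice. Light-treated replicate 1 stands out for neutrophil (7421) and erythroid (48555) markers, replicate 2 for immunoglobulin constant genes (9233) and replicate 4 for bone markers (2231, of which Bglap 2195).

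Other genes of the B lineage were read from lists of related genes. Of 14 other B-cell identity genes, 10 were tested, 0 were called, and 9 of the 10 had a positive log2 fold change between 5xFAD+L and 5xFAD, with a median of 0.74. Ly6d, a surface marker of committed B-cell precursors that some other cells also carry, was the most abundant, at 15.4, 20.0, 17.2 and 11.1 FPKM in WT, 18.1, 22.4 and 25.5 FPKM in 5xFAD and 53.2, 38.4 and 29.2 FPKM in 5xFAD+L. All light-treated values were above all others, with a log2 difference of 0.87 (SE 0.298, edgeR adjusted p = 0.305) against 5xFAD and 1.35 (SE 0.276, edgeR adjusted p = 0.0916) against WT. Cd72, an inhibitory receptor of B cells and some myeloid cells, was at 11.8 ± 0.877 FPKM in WT, 10.7 ± 2.87 in 5xFAD and 11.5 ± 3.30 in 5xFAD+L, without separation. Of 10 B-cell receptor signalling genes, 9 were tested, 0 were called and 8 were positive against 5xFAD, with a median of 0.39. The most abundant of these, the phosphatase gene Ptpn6 and the kinase gene Lyn, which myeloid cells also express, differed by 0.57 (SE 0.449) and 0.45 (SE 0.377).

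Immunoglobulin constant genes, the products of antibody-producing cells, made up 0.106% to 0.252% of all counts in WT meninges, 0.175% to 0.315% in 5xFAD and 0.123% to 0.702% in 5xFAD+L. The upper end came from light-treated replicate 2, and replicate 4 of the same group lay inside the WT range. Of 12 such genes 11 were tested, 0 were called and 10 were positive between 5xFAD+L and 5xFAD, with a median of 0.78. Igkc, the kappa light chain gene, was at 1478 ± 645 FPKM in WT, 1983 ± 524 in 5xFAD and 2545 ± 1941 in 5xFAD+L. Igha, the IgA heavy chain gene, was at 380 ± 83.3, 357 ± 253 and 633 ± 452 FPKM. Iglc3, a lambda light chain gene picked after its values were seen, was at 8.04, 12.3, 3.55 and 8.50 FPKM in WT, 12.0, 13.0 and 11.6 FPKM in 5xFAD and 34.4, 53.1 and 51.9 FPKM in 5xFAD+L. Its log2 difference of 2.49 (SE 0.382) against WT had an edgeR adjusted p of 0.0808, and reads of the near-identical lambda genes could be divided among them.

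The variable gene segments describe how mixed the antibody transcripts were. Of the 113 Ighv genes in the table, 59 to 66 had a count in WT meninges, 65 to 72 in 5xFAD and 65 to 77 in 5xFAD+L. The 3 most abundant Ighv genes held 22.5% to 36.9% of the summed Ighv FPKM in WT, 24.7% to 41.5% in 5xFAD and 19.8% to 20.0% in 5xFAD+L. The light-treated libraries thus held the 3 lowest shares, although the summed Ighv FPKM of replicate 2 (938) was well above that of replicate 4 (121). Among 100 Igkv genes the 3 most abundant held 20.4% to 43.1% in WT, 23.1% to 54.5% in 5xFAD and 22.3% to 27.7% in 5xFAD+L, with overlap. These shares are descriptions, and variable genes of near-identical sequence can share reads.

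Lists of precursor and secretory genes had medians near 0 or below. Of 8 B-cell precursor genes, 4 were tested, 0 were called and 1 was positive between 5xFAD+L and 5xFAD, with a median of -0.20. Vpreb1, a surrogate light chain gene of precursor B cells, was at 3.30 ± 1.48 FPKM in WT, 3.98 ± 2.60 in 5xFAD and 4.02 ± 0.354 in 5xFAD+L, and Cd93 was at 4.18 ± 1.61, 5.58 ± 3.49 and 4.75 ± 0.572 FPKM. Of 12 plasma cell and secretory genes, 11 were tested, 0 were called and 5 were positive, with a median of -0.01. The secretory transcription factor gene Xbp1 was at 121 ± 62.2, 103 ± 23.3 and 103 ± 17.8 FPKM and the signal peptidase gene Sec11c at 96.4 ± 17.2, 100 ± 9.84 and 111 ± 8.35 FPKM in WT, 5xFAD and 5xFAD+L. Both genes are used by many secretory cells. Slamf7 and Tnfrsf13b, alone of this list, were higher in every light-treated library than in every untreated one. Slamf7 was at 8.44 to 12.35 FPKM against 3.04 to 7.72 FPKM, and Tnfrsf13b at 3.66 to 4.38 against 1.31 to 2.56 FPKM. Sdc1 overlapped, at 8.13 to 13.48 FPKM in 5xFAD+L and 9.01 to 19.72 FPKM in 5xFAD. Prdm1 also overlapped, at 0.36 to 0.88 and 0.66 to 1.04 FPKM. Slamf7, Tnfrsf13b, Sdc1 and Prdm1 were picked after their values were seen. Of 9 B-cell attracting and survival signals, 7 were tested, 0 were called and 7 were positive, with a median of 0.54, led in level by the chemokine genes Ccl21a (log2 difference 0.82, SE 0.400) and Cxcl12 (0.54, SE 0.341). No difference between these lists was tested.

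The genes whose log2(FPKM + 1) over the 10 meninges libraries was most like the mean z-score of the 8 tested genes were Hhex, Igkv4-70, Mpeg1, Prkag2, Igkv13-85, AI467606, Klra2 and Msx2. Their Pearson r lay between 0.90 and 0.92 over these 10 libraries, which share the 3 treatment groups, so this likeness is a description. The kappa variable genes Igkv4-70 and Igkv13-85 had mean FPKM of 1.09 and 5.08 in WT, 2.25 and 9.14 in 5xFAD, and 25.4 and 47.8 in 5xFAD+L. Hhex, a homeobox gene, had means of 1.16, 2.58 and 5.02 FPKM.

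In HPC, Cd22 was the one gene of the 9 that separated genotypes. It was at 0.00, 0.26, 0.02 and 0.02 FPKM in WT replicates 1 to 4, at 1.19, 0.73, 0.93 and 0.97 FPKM in 5xFAD and at 1.01, 0.55, 0.94 and 1.23 FPKM in 5xFAD+L. Every 5xFAD and 5xFAD+L library was above every WT library, a separation found for 8.75% and 7.33% of all genes tested, and the 2 transgenic groups overlapped. Cd22 reached 1 FPKM in exactly 3 HPC libraries, none of them WT, so it passed the filter only through the groups in which it was high. It had to differ to enter, so its fitted values are descriptions with no p. The fitted log2 fold change was 5.03 (SE 0.622) between 5xFAD and WT and 5.00 (SE 0.623) between 5xFAD+L and WT. Cd22 met the call rule in both, as did 4.23% and 2.26% of the 12981 genes in the higher direction, and nothing is read from that. Between 5xFAD+L and 5xFAD it was -0.03 (95% interval -0.94 to 0.87), where 0.27% were called. WT libraries held at most 4 Cd22 counts each, so the size of these fold changes depends on very few counts. The comparison was added after the values were seen.

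The other 8 genes did not pass the filter in HPC, and their highest HPC level was 0.82 FPKM, for Jchain. Ms4a1 had at most 0.11 FPKM, Mzb1 at most 0.12 FPKM and Fcrla at most 0.31 FPKM in any HPC library. Other B-lineage genes reached levels close to those of Cd22. Cd79b was at 0.23 to 0.67 FPKM in 5xFAD and 0.36 to 0.77 FPKM in 5xFAD+L, and it overlapped with WT (0.19 to 0.60 FPKM). Jchain was at 0.27 to 0.70 FPKM in 5xFAD, 0.22 to 0.82 FPKM in 5xFAD+L and 0.16 to 0.38 FPKM in WT, also with overlap. Vpreb3 reached 0.61 FPKM and Cd79a 0.41 FPKM, both in 5xFAD replicate 4. Cd22 is also known from microglia, the macrophages of the brain. Several genes that B cells share with myeloid cells were also higher in 5xFAD than in WT HPC. Ptpn6 had a log2 fold change of 2.29 (SE 0.235, edgeR adjusted p = 5.96e-05) and Lyn of 1.19 (SE 0.191, edgeR adjusted p = 0.00133). Cd72 was at 0.700 ± 0.251 FPKM in WT and 4.87 ± 1.80 FPKM in 5xFAD (n = 4 each) and passed the filter through the transgenic groups, so no p is given. Cd37, a leukocyte tetraspanin gene picked after its values were seen, rose by 2.04 (SE 0.221, edgeR adjusted p = 7.38e-05). Between 5xFAD+L and 5xFAD HPC 0 of these were called, and their part in the Cd22 result was not tested.

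Ighm, the IgM heavy chain gene, was picked after its values were seen. It was at 8.84, 15.5, 13.1 and 17.6 FPKM in WT HPC, at 44.9, 37.3, 53.6 and 41.0 FPKM in 5xFAD HPC and at 45.9, 42.0, 35.1 and 39.2 FPKM in 5xFAD+L HPC. Both transgenic groups lay above WT without overlap, and the log2 fold change between 5xFAD and WT was 1.71 (SE 0.182, edgeR adjusted p = 6.48e-05). Igkc, the light chain gene, was at 1.95 ± 1.73, 4.16 ± 2.04 and 2.68 ± 2.16 FPKM in the same groups and was not called (edgeR adjusted p = 0.303 between 5xFAD and WT). The ratio of Igkc to Ighm counts had a median of 0.0382 in WT, 0.0364 in 5xFAD and 0.0130 in 5xFAD+L HPC, against 3.14, 3.57 and 4.56 in the meninges of these groups. Every HPC library, at most 0.0998, lay below every meninges library, at least 1.75.

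**Figure D5:**
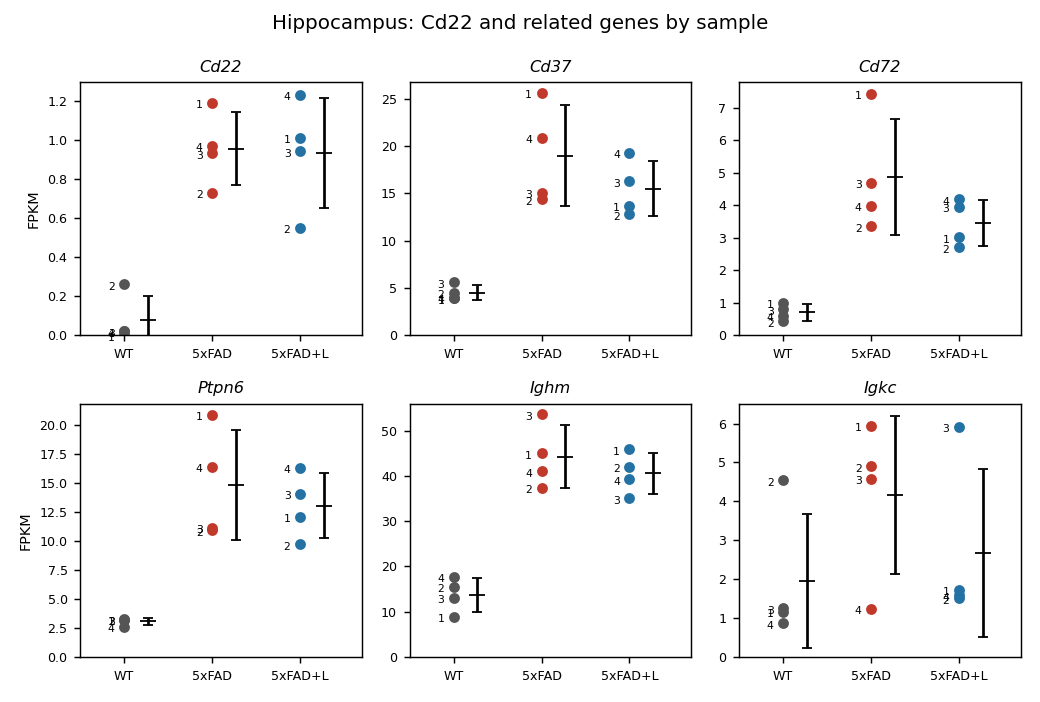
FPKM in each HPC library (points, numbered by replicate, n = 4 per group) of Cd22, of Cd37, Cd72 and Ptpn6, which B cells share with myeloid cells, and of the immunoglobulin genes Ighm and Igkc, with mean and SD as bars to the right. All but Igkc have both transgenic groups above WT without overlap, and Igkc overlaps among all 3 groups.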

How the data were processed

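RNA-seq libraries were made from whole meninges (10 libraries), hippocampus (12) and sorted mLECs (10) with an oligo-dT primed Smart-seq2 protocol, 1 mouse per library. The authors deposited 2 tables of 22337 genes, each with an expected count and an FPKM value per gene and library. The expected count is an estimated, unnormalized number of fragments, of which 81.6% to 89.6% of values above 0 were whole, and the FPKM values were normalized by the authors to transcript length and library size. The study's methods name fastp and RSEM for read filtering and quantification, whereas the submitters' processing notes name Trimmomatic, HISAT2, StringTie and DESeq2 with build mm10, so which steps made these values is unsettled. Both tables were normalized separately, and mLEC values were set beside tissue values without a test.

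Groups were taken from the sample labels. Expected counts were rounded to whole numbers, scaled by TMM and fitted with edgeR 4.0.16 (R 4.3.3) over the 3 groups of a tissue, or over WT meninges and WT hippocampus for the tissue comparison. Genes with at least 1 FPKM in at least 3 libraries were kept, p-values were adjusted by Benjamini-Hochberg over all genes kept, two-sided, and a gene was called at an adjusted p under 0.05 with at least a 2-fold difference. The script was tested on simulated data. Depth limits precision as given with the results, and 3 counts per library set the limit at 0 counts. Intervals are at 95%. The genes named are the 9 members, from each further list the 2 of highest mean FPKM in meninges since no list gene was called there, and the 8 most like the members; others are marked as picked after their values were seen. The members and lists were chosen with earlier results of these data known, and the hippocampus comparisons were added after the values were seen. Alternatives were DESeq2 1.42.0, limma 3.58.1 on log2(FPKM + 1) or log2(FPKM + 0.1), RLE scaling, other filters, other sample sets, a replicate block and leaving out each library. Within groups, libraries differed by far more than counting noise, so none was counted as a duplicate. Same-numbered libraries were checked for pairing. Positions came from GENCODE vM21 (GRCm38) and promoter sequences from RefSeq (GRCm38.p6), neither of which need match the authors' annotation.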

Additional observations from a re-analysis of the deposited data

Results flagged for a closer look

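Of 33 groups of 4 libraries with a spread above 0, 5 held a library whose gap to its nearest neighbour was past Dixon's 95% critical value on log2(FPKM + 1). For normally distributed values chance gives about 1 in 20 groups. Several of the flagged groups were at or near 0 in most libraries, where that rate does not hold, so no excess is read from this count. In WT hippocampus replicate 2, Cd79a was at 0.3 FPKM (8 counts) and Cd22 at 0.26 FPKM (4 counts), each above the other 3 WT libraries. Jchain was at 0.82 FPKM (20 counts) in replicate 3 of the light-treated hippocampus group. Pax5 was at 0.52 FPKM (39 counts) in WT meninges replicate 3. In sorted WT mLECs, Cd79a was at 12.01 FPKM (427 counts) in replicate 4 and at 0 in the other 3. Outside the compared tissues, Cd79a in light-treated mLEC replicate 3 reached 16.48 FPKM (369 counts), above every WT mLEC library, while Cd79b and Ptprc had 0 counts in that library.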

How the results depend on the processing

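In the meninges, 0 of the 8 tested genes were called in each comparison under every alternative run other than DESeq2, leaving out each library included. DESeq2 called 3 between 5xFAD+L and WT (Cd79b 1.09, Ms4a1 1.89 and Jchain 1.30 on the log2 scale), and the cause was not tested. Over these alternatives the adjusted p of Ms4a1 between 5xFAD+L and WT ranged from 0.00268 to 0.419. The median log2 fold change between 5xFAD and WT moved from 0.22 to 0.024 when only the compared groups were fitted, which tested another set of genes, and ranged from 0.13 to 0.21 without single libraries. Directions turned between 5xFAD and WT for Cd79b (-0.019 with no filter, -0.023 with the replicate block, and -0.18 to 0.18 without single libraries, below 0 without WT replicate 3, WT replicate 4 or 5xFAD replicate 4), Cd79a (-0.27 to 0.064 without single libraries, above 0 without WT replicate 1) and Fcrla (-0.44 to 0.088, above 0 without WT replicate 2). Mzb1 ranged from -0.17 to 1.15 between 5xFAD+L and 5xFAD and from -0.55 to 0.76 between 5xFAD+L and WT, below 0 without light-treated replicate 2 in each.

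Between WT meninges and WT hippocampus the count of 5 became 9 with no filter and 8 with all 6 groups in 1 fit, since more genes were tested, and the median of 7.09 became 3.54 on log2(FPKM + 1), 6.29 on log2(FPKM + 0.1) and 6.69 to 8.65 without single libraries. In hippocampus the call of Cd22 between 5xFAD and WT, and between 5xFAD+L and WT, became 0 with a filter on mean FPKM and with only the compared groups, where Cd22 did not pass the filter, and on log2(FPKM + 1), where its differences were 0.86 and 0.84. It also fell to 0 without 5xFAD replicate 1 in the first comparison and without 5xFAD+L replicate 1 or replicate 4 in the second, again through the filter, so these counts ranged from 0 to 1. Its difference between 5xFAD+L and 5xFAD ranged from -0.24 to 0.13 without single libraries and was above 0 without 5xFAD replicate 4 or 5xFAD+L replicate 2.

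Replicate numbers did not pair the libraries. The correlation of same-numbered deviations between 5xFAD+L and 5xFAD meninges was -0.11, 0.26 and -0.04 for replicates 1, 2 and 4. With the replicate block the medians were 0.21, 0.87 and 1.25 in the 3 meningeal comparisons with 0 genes called in each, 7.26 with 5 called between the tissues, and Cd22 in hippocampus was at 4.97, -0.01 and 4.96. In all, 159 of 179 counts and medians and 484 of 500 single-gene values stayed alike. Of the single-gene values 11 turned, 3 gained the call and 2 lost it. With 3 or 4 libraries per group and 6601143 to 14708202 counts in meninges, genes such as Pax5 with at most 52 counts gave little precision.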
